A study of Homo sapiens with 12 samples.

Results

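Histone acetyltransferases, the subunits that hold them in their complexes and the proteins that read acetyl-lysine were followed in HEL and UKE1 cells after exposure to ITF2357. A list of 45 genes was taken by symbol, and a gene was measured where the array had a row carrying its symbol alone. This left 42 of the 45 genes, among 18417 genes measured in the same way. KAT14 and EPC1 shared their rows with other symbols and were not analysed here, and neither was NCOA3. A gene with several rows was represented by the row whose level averaged highest. The study used 4 groups of 3 arrays, 12 in all: HEL with ITF2357, untreated HEL, UKE1 with ITF2357 and untreated UKE1. HEL and UKE1 are human erythroleukemia cell lines, per the labels, and both carry the JAK2V617F mutation, which makes the JAK2 kinase constitutively active. The treated cultures received 250 nM ITF2357 for 6 h and the untreated ones were kept for 6 h without it. ITF2357 (givinostat) inhibits histone deacetylases. The medium of UKE1 also held horse serum and hydrocortisone, per the labels' protocols, so line and medium cannot be told apart. The comparison asks how the transcripts of the enzymes that add acetyl groups, and of their readers, stood after the enzymes that remove those groups had been inhibited.

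Histone acetyltransferases transfer the acetyl group of acetyl-CoA to lysines of histone tails, which opens chromatin and makes a docking site for bromodomain and YEATS domain proteins. Most of them work inside large complexes. The GNAT enzymes sit in SAGA and ATAC, KAT5 sits in TIP60/NuA4, KAT6 and KAT7 enzymes are held by BRPF and JADE scaffolds with ING proteins, and KAT8 is held by the MSL and NSL complexes. Deacetylases oppose these enzymes, and BET proteins bind the acetylated histones and help to recruit the transcription machinery.

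Levels are log2 values of RMA-normalized signal on whole-transcript arrays. Equal amounts of RNA were labelled and the arrays were normalized together, so a level is relative to the other genes of the same array, and fewer cells with a transcript cannot be told apart from less transcript per cell. Over all 33297 rows of the arrays, with or without a listed gene, arrays of 1 group correlated at r between 0.9939 and 0.9959. Between treated and untreated arrays of 1 line r was 0.9815 to 0.9849, and between the lines it was 0.9278 to 0.9428. Of the erythroid and megakaryocytic markers, ITGA2B averaged 12 in HEL with ITF2357 and 12.08 in untreated HEL, and 10.52 and 10.73 in UKE1 with and without ITF2357. GATA1 averaged 9.78 and 10.28 in HEL with and without ITF2357, against 6.86 and 7.46 in UKE1. The T cell gene CD3D averaged 8.75 and 9.15 in UKE1 with and without ITF2357, against 4.24 and 4.30 in HEL, and CD3E behaved in the same way at 8.35 and 8.56 against 4.86 and 4.96. The part of these lineage genes in the results was not tested. The labels call the triplicates independent and say no more of the cultures, so the p-values cover only the spread among these arrays, which may be technical. A call is an adjusted p under 0.05 from limma, with the Benjamini-Hochberg adjustment over all 18417 genes, and changes are given as log2 differences ± the standard error of the fit.

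The promoters of 5 members are shown because their transcripts changed in both lines, and they give the sequence context of the comparisons that follow. TADA2A, EPC2, CREBBP and MSL1 are the 4 genes with the largest falls that had a promoter window ending at the gene's outermost start, ranked by the smaller of their 2 falls, and NCOA1 rose in both lines. Each window holds the 250 bases before the transcription start, read 5′ to 3′ on the gene's strand from RefSeq (GRCh38.p14). Capitals mark GGGCGG, the GC box bound by SP1-type factors, or CCGCCC, its reverse complement. The windows lie at chr17:37406636-37406885 (plus strand, TADA2A), chr2:148644501-148644750 (plus strand, EPC2), chr16:3880714-3880963 (minus strand, CREBBP), chr17:40121721-40121970 (plus strand, MSL1) and chr2:24491004-24491253 (plus strand, NCOA1).
TADA2A: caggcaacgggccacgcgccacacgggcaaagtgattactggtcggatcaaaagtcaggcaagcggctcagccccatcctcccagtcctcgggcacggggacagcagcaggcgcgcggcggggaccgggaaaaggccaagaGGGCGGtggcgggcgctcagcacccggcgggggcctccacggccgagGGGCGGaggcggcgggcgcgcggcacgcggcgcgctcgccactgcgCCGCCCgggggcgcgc
EPC2: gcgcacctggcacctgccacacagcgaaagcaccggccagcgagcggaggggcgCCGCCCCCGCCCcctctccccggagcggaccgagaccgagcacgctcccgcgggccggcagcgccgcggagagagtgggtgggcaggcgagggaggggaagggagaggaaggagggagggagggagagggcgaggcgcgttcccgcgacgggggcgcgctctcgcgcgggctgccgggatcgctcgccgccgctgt
CREBBP: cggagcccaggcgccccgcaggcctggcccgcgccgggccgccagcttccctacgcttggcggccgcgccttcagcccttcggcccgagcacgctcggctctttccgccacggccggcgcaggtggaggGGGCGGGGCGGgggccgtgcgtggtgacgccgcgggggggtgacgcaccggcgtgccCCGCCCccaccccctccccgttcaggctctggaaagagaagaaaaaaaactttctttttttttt
MSL1: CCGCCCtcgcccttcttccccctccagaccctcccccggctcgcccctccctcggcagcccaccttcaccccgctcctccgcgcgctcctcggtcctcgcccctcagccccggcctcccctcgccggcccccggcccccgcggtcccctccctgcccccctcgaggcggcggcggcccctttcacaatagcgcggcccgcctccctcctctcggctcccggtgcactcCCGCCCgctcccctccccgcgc
NCOA1: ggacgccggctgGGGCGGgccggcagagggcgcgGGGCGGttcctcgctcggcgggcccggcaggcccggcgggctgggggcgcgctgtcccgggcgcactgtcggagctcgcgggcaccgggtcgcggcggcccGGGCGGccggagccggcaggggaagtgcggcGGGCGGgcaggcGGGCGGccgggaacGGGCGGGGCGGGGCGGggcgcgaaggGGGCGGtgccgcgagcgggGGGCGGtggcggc
The GC box occurred in 3 places in the TADA2A window, 2 in EPC2, 3 in CREBBP, 2 in MSL1 and 10 in NCOA1, with matches allowed to overlap. None of the 5 windows held CCGGAAG (an ETS-type core), CACGTG (an E-box) or TATAAA, on either strand. Of the 42 measured genes, 36 had a promoter in the RefSeq table and 32 had one that ended at the outermost start. GGGCGG stood in 25 of those 32 windows (78.1%), in 13 of the 18 that belong to genes that fell in both lines (72.2%), and in 42.6% of all 35116 windows of the table. CCGGAAG stood in 7 of the 32 (21.9%) and in 5 of the 18 (27.8%), against 8.52% of all windows. CACGTG stood in 5 of the 32 (15.6%) and in 1 of the 18 (5.56%), against 6.34% of all windows, and TATAAA in 0 of the 32, against 10.7%. The 35116 windows were not limited to measured genes or to outermost starts. The sets are therefore not matched, and enrichment was not tested. The 32 windows held a median of 27 CG dinucleotides, with a range of 2 to 46, and the windows of 12396 tested genes held a median of 18, with a range of 0 to 59.

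ITF2357 lowered the transcripts of most of these genes in both lines. In HEL, 27 of the 42 fell and 4 rose, so that 73.8% were called, against 42.4% of all genes. The falls made up 64.3% of the 42 genes and 19.9% of all genes, and the rises 9.52% of the 42 and 22.6% of all genes. The treated and untreated HEL arrays did not overlap for 34 of the 42 genes, and for 49.0% of all genes. The median log2 change of the 42 genes was -0.30, against -0.01 over all genes. Calls were more common at higher levels. When only the 9208 genes with a mean above the all-gene median were fitted, 3043 fell and 3334 rose in HEL. Of the 40 members among them, 29 fell and 5 rose.

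In UKE1, 27 fell and 5 rose, so that 76.2% were called, against 44.3% of all genes. Falls made up 64.3% of the 42 genes and 22.3% of all genes, and rises 11.9% of the 42 and 22.0% of all genes. The UKE1 arrays did not overlap for 35 of the 42 genes, and for 53.9% of all genes. The median log2 change was -0.48, against 0.01 over all genes. With only the 9208 genes above the all-gene median level fitted, 3422 fell and 2976 rose in UKE1. Of the 40 members among them, 28 fell and 4 rose.

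Falls were called in both lines for 25 of the 42 genes, and for 12.9% of all genes. They were EP300, CREBBP, KAT2A, ELP3, KAT5, KAT6B, KAT7, KAT8, NCOA2, TAF1, TADA1, TADA2A, TADA3, TRRAP, EPC2, ING3, YEATS4, BRD1, BRPF3, ING5, JADE1, JADE2, MEAF6, MSL1 and MSL2. NCOA1 and YEATS2 rose in both lines, where 14.0% of all genes did so. None of the 42 was called in opposite directions, where 2.1% of all genes were. A change of at least 1.6-fold was reached by 11 genes in HEL (10.6% of all genes) and by 14 in UKE1 (11.5% of all genes), and each of these changes was a fall. In at least 1 of the lines 17 genes reached it, and 16.6% of all genes did. HAT1, BRD8, MSL3 and BRD2 were called in HEL alone (4 genes, against 13.4% of all genes), and KAT2B, KAT6A, ING4, CECR2 and MLLT1 in UKE1 alone (5 genes, against 15.2%). GTF3C4, TADA2B, BRPF1, JADE3, BRD3 and BRDT were called in neither line (6 genes, against 42.3%).

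**Figure D1:**
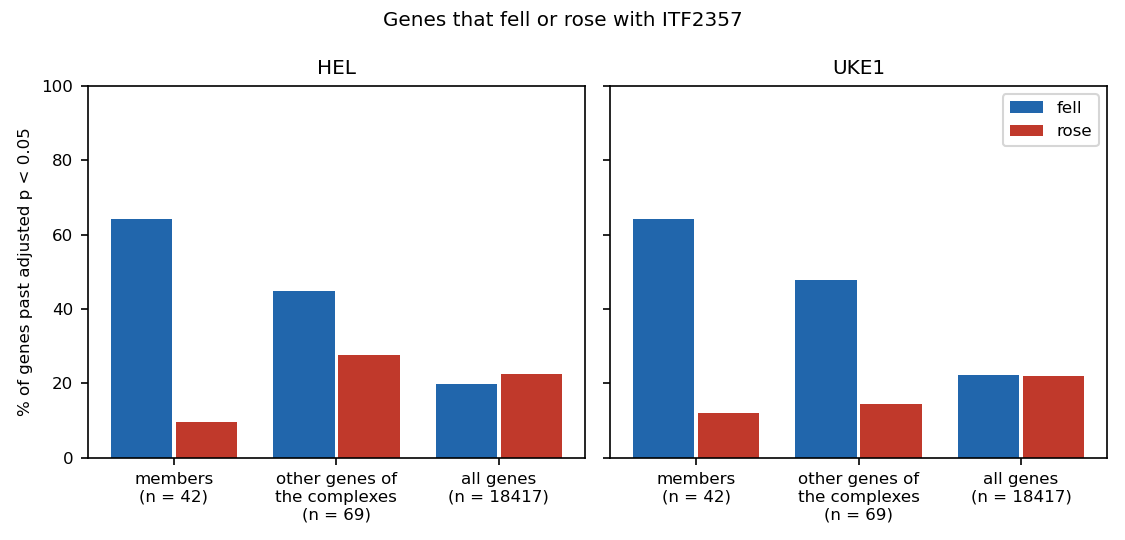
Share of genes past adjusted p of 0.05 that fell (blue bars) or rose (red bars) with ITF2357 in HEL and in UKE1. The y axis gives the percentage of the 42 genes described here, of 69 further genes and of all 18417 genes. The 69, labelled as other genes of the complexes, are other complex subunits and other bromodomain and YEATS proteins. They also include other acetyltransferases, ELP subunits and genes of acetyl-CoA supply. Falls made up 64.3% of the 42 genes in each line, against 19.9% of all genes in HEL and 22.3% in UKE1. Calls were more common among genes above the all-gene median level, where 40 of the 42 genes lie.

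**Figure D2:**
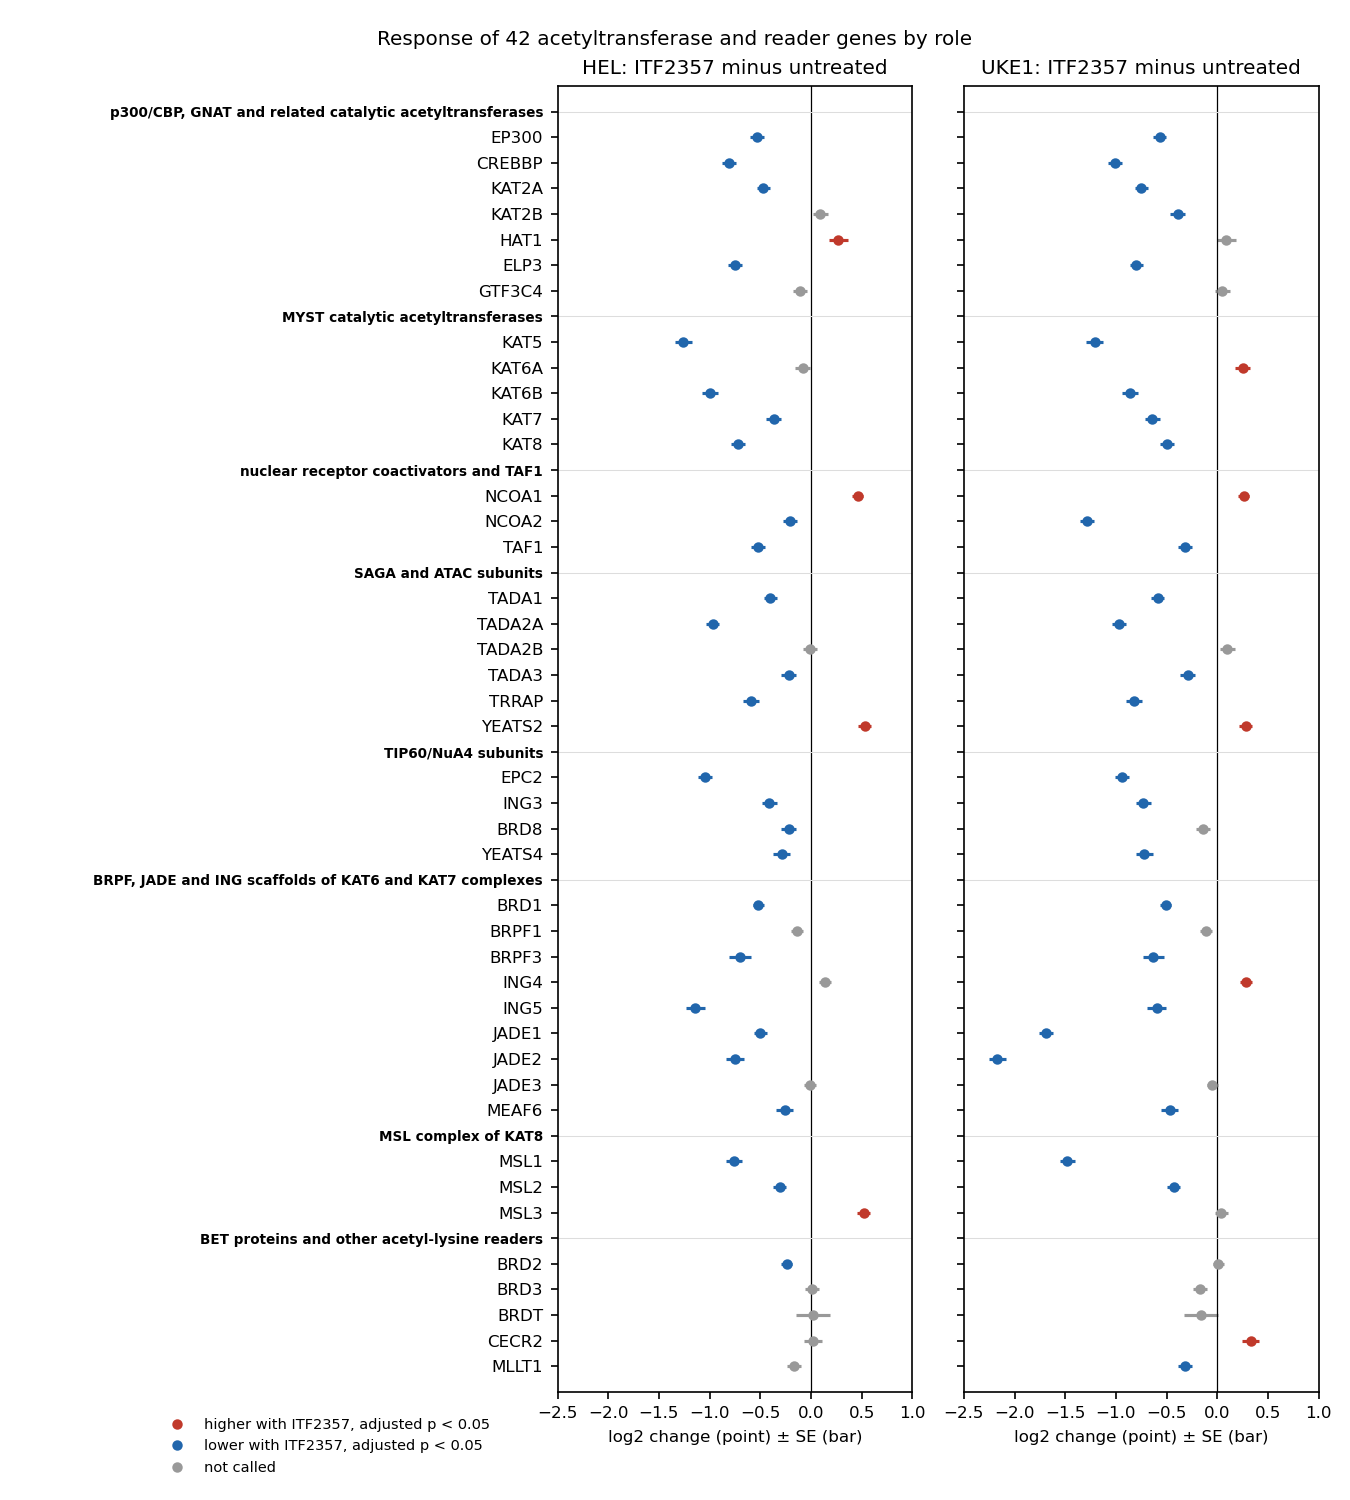
Log2 change with ITF2357 (x axis, point ± SE) of the 42 genes in HEL (left panel) and UKE1 (right panel), grouped by role; red points rose, blue points fell and grey points were not called. The longest shifts to the left were those of KAT5 in HEL (-1.26) and JADE2 in UKE1 (-2.17). The group of BET and other readers (BRD2, BRD3, BRDT, CECR2 and MLLT1) stayed within -0.32 and 0.33. Some readers grouped with their complexes went further, such as YEATS4 at -0.72 in UKE1 and YEATS2 at 0.53 in HEL.

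Among the 7 enzymes of the p300/CBP and GNAT families and their relatives, 4 fell and 1 rose in HEL, and 5 fell in UKE1. Beside this and each later role count stand the all-gene shares. These were 19.9% falls and 22.6% rises in HEL, and 22.3% falls and 22.0% rises in UKE1. CREBBP, which encodes the coactivator CBP, had log2 levels of 8.31, 8.35 and 8.50 in HEL with ITF2357, against 9.08, 9.23 and 9.27 in untreated HEL. In UKE1 it had 8.23, 8.28 and 8.31 with ITF2357, against 9.24, 9.26 and 9.33 untreated. The treated arrays lay below the untreated ones in both lines without overlap, and CREBBP fell by 1.75-fold in HEL (log2 change -0.81 ± 0.070, adjusted p = 5.11e-07) and by 2.01-fold in UKE1 (-1.01 ± 0.070, adjusted p = 6.23e-08). EP300, its paralogue p300, had 8.68, 8.61 and 8.64 in HEL with ITF2357, against 9.06, 9.25 and 9.21 in untreated HEL. In UKE1 its levels were 8.62, 8.67 and 8.76 with ITF2357, against 9.17, 9.30 and 9.29 untreated. Again no treated array reached an untreated one, and EP300 fell by 1.44-fold in HEL (adjusted p = 1.9e-05) and by 1.48-fold in UKE1 (adjusted p = 8.91e-06).

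KAT2A (GCN5) is the catalytic subunit of SAGA and ATAC. Its log2 levels in HEL were 8.17, 8.16 and 8.31 with ITF2357, against 8.68, 8.69 and 8.69 untreated. In UKE1 they were 8.18, 8.23 and 8.09 with ITF2357, against 8.87, 8.87 and 9.01 untreated. The groups did not overlap in either line, and KAT2A fell by 1.39-fold in HEL (-0.47 ± 0.066, adjusted p = 4.25e-05) and by 1.68-fold in UKE1 (-0.75 ± 0.066, adjusted p = 5.41e-07). KAT2B (PCAF), the paralogue that can take its place, had 8.85, 8.83 and 8.84 in HEL with ITF2357, against 8.77, 8.79 and 8.69 untreated. In UKE1 KAT2B had 7.91, 8.14 and 8.15 with ITF2357, against 8.47, 8.53 and 8.37 untreated. Its treated arrays thus lay slightly above the untreated ones in HEL, with a change of 0.09 that was not called (adjusted p = 0.379), and below them in UKE1, where it fell by 1.31-fold (-0.39 ± 0.073, adjusted p = 0.000514).

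ELP3, the catalytic subunit of Elongator, which modifies wobble uridines of transfer RNA, had 9.91, 9.87 and 9.92 in HEL with ITF2357, against 10.75, 10.61 and 10.59 untreated. Its UKE1 levels were 9.85, 9.91 and 9.75 with ITF2357, against 10.66, 10.68 and 10.57 untreated. These falls of 1.68-fold in HEL (adjusted p = 5.52e-07) and 1.74-fold in UKE1 (adjusted p = 2.76e-07) came without overlap of the arrays. HAT1, which acetylates newly made histone H4 before it is laid down, averaged 9.63 ± 0.19 in HEL with ITF2357 and 9.36 ± 0.052 in untreated HEL (SD, n = 3 each), a rise of 0.27 ± 0.091 (adjusted p = 0.028). That call was lost without untreated HEL replicate 3 (adjusted p = 0.0901), without treated HEL replicate 1 (0.0602) and without treated HEL replicate 2 (0.138). GTF3C4, a subunit of the RNA polymerase III factor TFIIIC, was not called in either line, with changes of -0.11 in HEL and 0.05 in UKE1.

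The MYST enzymes KAT5, KAT6A, KAT6B, KAT7 and KAT8 make up the second catalytic family, and 4 of the 5 fell in each line. KAT5 (TIP60), which acetylates histones H4 and H2A and acts in the DNA damage response, had log2 levels of 7.97, 7.74 and 8.04 in HEL with ITF2357, against 9.23, 9.17 and 9.13 untreated. In UKE1 KAT5 stood at 7.25, 7.5 and 7.39 with ITF2357, against 8.64, 8.64 and 8.50 untreated. Treated and untreated groups stood far apart in both lines, and the fall was 2.39-fold in HEL (-1.26 ± 0.086, adjusted p = 6.03e-08) and 2.32-fold in UKE1 (-1.21 ± 0.086, adjusted p = 7.14e-08). KAT6B (MORF) had 6.58, 6.52 and 6.54 in HEL with ITF2357, against 7.48, 7.75 and 7.41 untreated. In UKE1 KAT6B had 7.87, 7.92 and 7.83 with ITF2357, against 8.74, 8.74 and 8.71 untreated. All treated arrays lay below the untreated arrays of their line, with falls of 2.01-fold in HEL (adjusted p = 1.9e-07) and 1.82-fold in UKE1 (adjusted p = 6.8e-07). The treated UKE1 arrays still lay above the untreated HEL arrays.

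KAT8 (MOF), the main acetyltransferase for lysine 16 of histone H4, had 7.89, 7.81 and 7.94 in HEL with ITF2357, against 8.57, 8.59 and 8.64 untreated. Its UKE1 levels were 8.44, 8.35 and 8.33 with ITF2357, against 8.99, 8.83 and 8.78 untreated. The groups did not overlap, and KAT8 fell by 1.65-fold in HEL (adjusted p = 1.06e-06) and 1.41-fold in UKE1 (adjusted p = 3.4e-05). KAT7 (HBO1), which acts with the JADE and BRPF scaffolds, fell by 1.29-fold in HEL (-0.37 ± 0.071, adjusted p = 0.00074) and 1.56-fold in UKE1 (-0.64 ± 0.071, adjusted p = 4.91e-06). KAT6A (MOZ), a paralogue of KAT6B, was the exception in this family. It had 9.56, 9.72 and 9.75 in HEL with ITF2357, against 9.69, 9.78 and 9.81 untreated, which overlapped. In UKE1 KAT6A had 10.24, 10.24 and 10.44 with ITF2357, against 10.02, 10.06 and 10.10 untreated, so that it rose by 1.19-fold (0.25 ± 0.075, adjusted p = 0.0149). The UKE1 call for KAT6A was lost without untreated UKE1 replicate 1 (adjusted p = 0.053) and without treated UKE1 replicate 3 (0.0787).

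**Figure D3:**
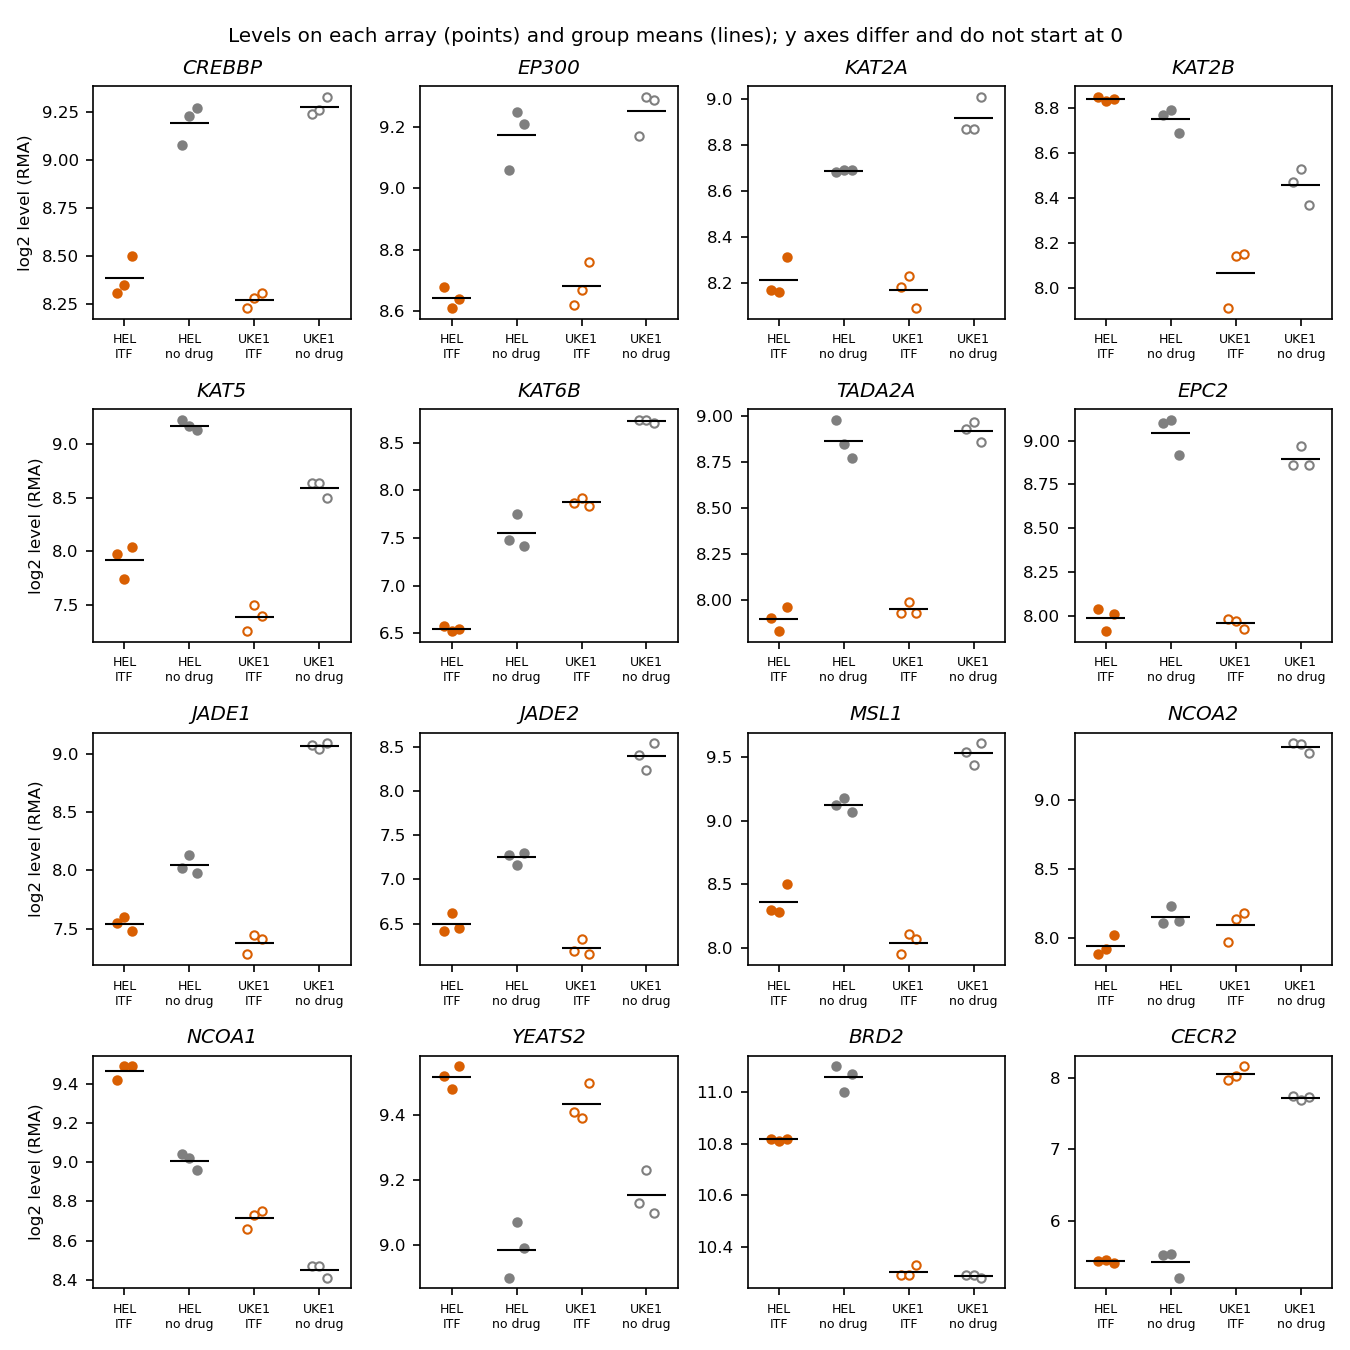
Log2 level (y axis, scales differ between panels and do not start at 0) of 16 genes on each array (points) with the group mean (line), for HEL with ITF2357, untreated HEL, UKE1 with ITF2357 and untreated UKE1 from left to right in each panel. The treated arrays of KAT5, KAT6B, TADA2A, EPC2 and CREBBP lie below all untreated arrays of their line, while those of NCOA1 and YEATS2 lie above them.

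NCOA1 and NCOA2, coactivators of the steroid receptors with reported acetyltransferase activity, went opposite ways. NCOA1 had log2 levels of 9.42, 9.49 and 9.49 in HEL with ITF2357, against 9.04, 9.02 and 8.96 untreated. In UKE1 NCOA1 had 8.66, 8.73 and 8.75 with ITF2357, against 8.47, 8.47 and 8.41 untreated. The treated arrays lay above the untreated ones in both lines, and NCOA1 rose by 1.38-fold in HEL (0.46 ± 0.056, adjusted p = 1.2e-05) and 1.20-fold in UKE1 (0.26 ± 0.056, adjusted p = 0.00146). NCOA2 had 7.88, 7.92 and 8.02 in HEL with ITF2357, against 8.11, 8.23 and 8.12 untreated. Its UKE1 levels were 7.97, 8.14 and 8.18 with ITF2357, against 9.41, 9.40 and 9.34 untreated. The HEL groups were close but did not overlap, whereas the UKE1 groups stood far apart, with a fall of 1.16-fold in HEL (-0.21 ± 0.070, adjusted p = 0.0243) and 2.44-fold in UKE1 (-1.29 ± 0.070, adjusted p = 6.99e-09). The HEL call for NCOA2 was lost without untreated HEL replicate 2 (adjusted p = 0.096), without treated HEL replicate 1 (0.0922) and without treated HEL replicate 2 (0.0635). TAF1, the largest subunit of TFIID and a bromodomain protein, fell by 1.44-fold in HEL (adjusted p = 2.26e-05) and 1.25-fold in UKE1 (adjusted p = 0.00136).

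Of the 6 SAGA and ATAC subunits, 4 fell and YEATS2 rose in each line. TADA2A, the adaptor that ties KAT2A into ATAC, had log2 levels of 7.90, 7.83 and 7.96 in HEL with ITF2357, against 8.98, 8.85 and 8.77 untreated. In UKE1 TADA2A had 7.93, 7.99 and 7.93 with ITF2357, against 8.93, 8.97 and 8.86 untreated. The treated arrays lay below the untreated ones in both lines, and the fall was 1.96-fold in both (-0.97 ± 0.067 each, adjusted p = 6.2e-08 in HEL and 5.15e-08 in UKE1). TADA2B, the corresponding adaptor of SAGA, was not called in either line, with changes of -0.01 ± 0.074 in HEL and 0.10 ± 0.074 in UKE1, and 95% intervals of -0.16 to 0.15 and -0.06 to 0.26. TRRAP, the activator-binding scaffold shared by SAGA and TIP60, had 8.02, 8.02 and 8.19 in HEL with ITF2357, against 8.56, 8.64 and 8.79 untreated. In UKE1 TRRAP had 7.77, 7.85 and 7.95 with ITF2357, against 8.60, 8.69 and 8.73 untreated. No arrays overlapped, and TRRAP fell by 1.5-fold in HEL (adjusted p = 2.46e-05) and 1.77-fold in UKE1 (adjusted p = 1.04e-06).

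TADA1, a core subunit of SAGA, fell by 1.32-fold in HEL (adjusted p = 0.000144) and 1.5-fold in UKE1 (adjusted p = 3.9e-06). TADA3, the adaptor common to both complexes, fell by 1.16-fold in HEL (-0.22 ± 0.074, adjusted p = 0.0275) and 1.22-fold in UKE1 (-0.29 ± 0.074, adjusted p = 0.00485). The HEL call for TADA3 was lost without untreated HEL replicates 1 (adjusted p = 0.0753) or 2 (0.0531) and without treated HEL replicate 1 (0.135), and it was lost under median centring (0.0621). YEATS2, the acetyl-lysine reader of ATAC, was the member of this group that rose. It had 9.52, 9.48 and 9.55 in HEL with ITF2357, against 8.90, 9.07 and 8.99 untreated, and 9.41, 9.39 and 9.50 in UKE1 with ITF2357, against 9.13, 9.23 and 9.10 untreated. The treated arrays were the higher ones in both lines, by 1.44-fold in HEL (0.53 ± 0.065, adjusted p = 1.24e-05) and 1.22-fold in UKE1 (0.28 ± 0.065, adjusted p = 0.00261).

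The measured TIP60/NuA4 subunits of the list fell along with KAT5 itself, 4 of 4 in HEL and 3 of 4 in UKE1. Not every subunit of the complex fell. Of 10 other subunits, 5 fell and 2 rose in HEL, and 4 fell in UKE1. EPC2, a scaffold of the catalytic module, had log2 levels of 8.04, 7.91 and 8.01 in HEL with ITF2357, against 9.10, 9.12 and 8.92 untreated. In UKE1 EPC2 had 7.98, 7.97 and 7.92 with ITF2357, against 8.86, 8.97 and 8.86 untreated. The groups stood apart in both lines, and EPC2 fell by 2.08-fold in HEL (-1.05 ± 0.069, adjusted p = 4.27e-08) and 1.92-fold in UKE1 (-0.94 ± 0.069, adjusted p = 9.55e-08). ING3, whose PHD finger binds trimethylated lysine 4 of histone H3, had 8.71, 8.56 and 8.48 in HEL with ITF2357, against 9.10, 8.99 and 8.91 untreated. Its UKE1 levels were 7.67, 7.77 and 7.64 with ITF2357, against 8.42, 8.47 and 8.39 untreated. Treated arrays were the lower ones throughout, with falls of 1.33-fold in HEL (adjusted p = 0.000323) and 1.66-fold in UKE1 (adjusted p = 1.68e-06).

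YEATS4 (GAS41), a YEATS domain reader shared with the SRCAP remodeller, had 9.37, 9.36 and 9.21 in HEL with ITF2357, against 9.74, 9.60 and 9.48 untreated. Its UKE1 levels were 9.20, 9.15 and 8.98 with ITF2357, against 9.82, 9.92 and 9.74 untreated. The HEL groups were separated by a narrower gap than the UKE1 groups, and YEATS4 fell by 1.23-fold in HEL (-0.29 ± 0.084, adjusted p = 0.0117) and 1.64-fold in UKE1 (-0.72 ± 0.084, adjusted p = 8.05e-06). Its HEL call was lost without untreated HEL replicate 1 (adjusted p = 0.0569) and without treated HEL replicate 3 (0.0542). BRD8, the bromodomain subunit of the complex, fell by 1.16-fold in HEL (-0.22 ± 0.072, adjusted p = 0.0249) and had a change of -0.14 in UKE1 that was not called (adjusted p = 0.141). The HEL call for BRD8 was lost without untreated HEL replicates 1 (adjusted p = 0.112) or 2 (0.0516), without treated HEL replicates 1 (0.0614) or 2 (0.0923), and when only the HEL arrays were fitted (0.0675).

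Of the 9 scaffold and ING genes of the KAT6 and KAT7 complexes, 6 fell in HEL and none rose, and in UKE1 6 fell and 1 rose. JADE1 and JADE2, which direct KAT7 to histone H4, had the largest changes of the whole list in UKE1. JADE2 had log2 levels of 6.41, 6.62 and 6.45 in HEL with ITF2357, against 7.28, 7.16 and 7.30 untreated. In UKE1 JADE2 had 6.19, 6.33 and 6.15 with ITF2357, against 8.41, 8.23 and 8.54 untreated. The groups did not overlap, and JADE2 fell by 1.68-fold in HEL (-0.75 ± 0.087, adjusted p = 7.27e-06) and 4.50-fold in UKE1 (-2.17 ± 0.087, adjusted p = 6.91e-10). JADE1 had 7.55, 7.60 and 7.48 in HEL with ITF2357, against 8.02, 8.13 and 7.98 untreated. In UKE1 JADE1 had 7.28, 7.45 and 7.41 with ITF2357, against 9.07, 9.04 and 9.09 untreated. It fell by 1.41-fold in HEL (-0.50 ± 0.066, adjusted p = 2.35e-05) and 3.22-fold in UKE1 (-1.69 ± 0.066, adjusted p = 5.49e-10), again with no overlap. JADE3, the third paralogue, was not called in either line, with changes of -0.01 ± 0.055 in HEL and -0.05 ± 0.055 in UKE1, and 95% intervals of -0.13 to 0.10 and -0.16 to 0.07.

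ING5, a PHD finger subunit of these complexes, had 6.61, 6.43 and 6.75 in HEL with ITF2357, against 7.85, 7.62 and 7.76 untreated. Its UKE1 levels were 7.31, 7.42 and 7.54 with ITF2357, against 8.13, 7.96 and 7.96 untreated. The gap between groups was wider in HEL, where ING5 fell by 2.21-fold (-1.14 ± 0.093, adjusted p = 2.82e-07), than in UKE1, where it fell by 1.51-fold (-0.60 ± 0.093, adjusted p = 0.000111). ING4, its close paralogue, was higher by 1.22-fold in UKE1 with ITF2357 (0.28 ± 0.061, adjusted p = 0.00156), and its change of 0.14 in HEL was not called (adjusted p = 0.0776). Without untreated HEL replicate 1 ING4 was called in HEL too (adjusted p = 0.046). BRPF3, a bromodomain scaffold of KAT7, had 7.03, 6.62 and 7.09 in HEL with ITF2357, against 7.61, 7.65 and 7.59 untreated. In UKE1 BRPF3 had 6.55, 6.70 and 6.53 with ITF2357, against 7.20, 7.13 and 7.34 untreated. Treated HEL replicate 2 lay well below the other treated HEL arrays, and BRPF3 fell by 1.63-fold in HEL (-0.70 ± 0.11, adjusted p = 7.71e-05) and 1.55-fold in UKE1 (-0.63 ± 0.11, adjusted p = 0.000195).

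BRD1, the second BRPF-type scaffold, fell by 1.44-fold in HEL (adjusted p = 3.98e-06) and 1.42-fold in UKE1 (adjusted p = 4.8e-06). BRPF1, the third one and the best known partner of KAT6A, was not called, with changes of -0.14 in HEL (adjusted p = 0.101) and -0.11 in UKE1 (adjusted p = 0.164), and it was called lower in HEL without treated HEL replicate 3 (adjusted p = 0.0287). MEAF6, a small subunit common to these complexes and to TIP60, fell by 1.20-fold in HEL (-0.26 ± 0.082, adjusted p = 0.0182) and 1.38-fold in UKE1 (-0.47 ± 0.082, adjusted p = 0.000285). The HEL call for MEAF6 was lost without untreated HEL replicate 1 (adjusted p = 0.0855), without treated HEL replicate 2 (0.0801) and when only the HEL arrays were fitted (0.0568).

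In the MSL complex, which holds KAT8 and whose fly counterpart works in dosage compensation, the scaffold and ligase subunits fell and MSL3 did not. MSL1, the scaffold, had log2 levels of 8.30, 8.28 and 8.50 in HEL with ITF2357, against 9.12, 9.18 and 9.07 untreated. In UKE1 MSL1 had 7.95, 8.11 and 8.07 with ITF2357, against 9.54, 9.44 and 9.61 untreated. No arrays overlapped, and MSL1 fell by 1.70-fold in HEL (-0.76 ± 0.076, adjusted p = 1.76e-06) and 2.80-fold in UKE1 (-1.48 ± 0.076, adjusted p = 4.33e-09). MSL2, a ubiquitin ligase, fell by 1.24-fold in HEL (adjusted p = 0.00121) and 1.35-fold in UKE1 (adjusted p = 7.38e-05). MSL3, the chromodomain subunit, had 8.22, 8.24 and 8.26 in HEL with ITF2357, against 7.77, 7.80 and 7.59 untreated. In UKE1 MSL3 had 8.41, 8.45 and 8.49 with ITF2357, against 8.47, 8.36 and 8.41 untreated. The HEL groups did not overlap and MSL3 rose by 1.43-fold there (0.52 ± 0.065, adjusted p = 1.52e-05), whereas the UKE1 groups overlapped and its change of 0.04 was not called (adjusted p = 0.664).

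Of the 5 readers outside these complexes, 1 fell in HEL, and 1 fell and 1 rose in UKE1. Falls thus made up 20.0% of these 5 readers in each line, near the all-gene shares of 19.9% in HEL and 22.3% in UKE1. BRD2, a BET protein, had log2 levels of 10.82, 10.81 and 10.82 in HEL with ITF2357, against 11.10, 11 and 11.07 untreated. In UKE1 BRD2 had 10.29, 10.29 and 10.33 with ITF2357, against 10.29, 10.29 and 10.28 untreated. It fell by 1.18-fold in HEL without overlap (-0.24 ± 0.053, adjusted p = 0.00198), and in UKE1 the groups overlapped and the change of 0.01 was not called (adjusted p = 0.875). BRD3, its paralogue, was not called, with changes of 0.01 in HEL (adjusted p = 0.932) and -0.17 in UKE1 (adjusted p = 0.0652), and BRD3 was called lower in UKE1 without treated UKE1 replicate 2 (adjusted p = 0.0322). BRDT, the BET protein of the testis, lay near the lower end of the measured range, with group means between 3.55 and 4.00, and was not called in either line. CECR2, a bromodomain partner of ISWI remodellers, rose by 1.26-fold in UKE1 (0.33 ± 0.085, adjusted p = 0.00582) and had a change of 0.02 in HEL (adjusted p = 0.899). MLLT1 (ENL), a YEATS domain reader of the super elongation complex, fell by 1.25-fold in UKE1 (-0.32 ± 0.069, adjusted p = 0.00164), and its change of -0.17 in HEL was not called (adjusted p = 0.0575). Without untreated HEL replicate 1 (adjusted p = 0.0436) or treated HEL replicate 3 (0.0228) it was called in HEL too.

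The difference between the lines in their response was tested directly, as the UKE1 change minus the HEL change. A lower response means that the UKE1 change lay below the HEL change, and a higher one that it lay above it. A higher response can thus be a smaller fall, as for ING5, which changed by -1.14 in HEL and -0.60 in UKE1. The UKE1 response was lower for 9 of the 42 genes and higher for 3, so that 28.6% were called, against 23.9% of all genes. Lower responses made up 21.4% of the 42 and 13.8% of all genes, and higher ones 7.14% of the 42 and 10.1% of all genes. The lower ones were JADE2 (-1.42 ± 0.12, adjusted p = 3.22e-06), JADE1 (-1.19 ± 0.093, adjusted p = 1.35e-06), NCOA2 (-1.08 ± 0.098, adjusted p = 5.09e-06), MSL1 (-0.72 ± 0.11, adjusted p = 0.000279), MSL3 (-0.48 ± 0.092, adjusted p = 0.00193), KAT2B, YEATS4, ING3 and KAT2A. The higher ones were ING5 (0.55 ± 0.13, adjusted p = 0.00796), KAT6A (0.33 ± 0.11, adjusted p = 0.0378) and BRD2 (0.25 ± 0.076, adjusted p = 0.0257). With only the 9208 genes above the all-gene median level fitted, 2261 had lower and 1455 higher responses. Of the 40 members among them, 12 had lower and 3 higher ones, so the 42 genes did not stand out at like level. The count of higher responses was 1 without treated HEL replicate 1, 1 without treated UKE1 replicate 3 and 1 under median centring, and ING5 kept its call in each of these. The count of lower responses was 6 without untreated UKE1 replicate 2 and 6 without treated UKE1 replicate 3. Leaving out 1 array ended the call for KAT2A with 11 of the 12 arrays (adjusted p between 0.051 and 0.112), for ING3 with 9 (0.0503 to 0.0972), for KAT6A with 6 (0.0661 to 0.0944), for BRD2 with 4 (0.05 to 0.0562) and for YEATS4 with 2 (0.0506 to 0.0526).

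JADE1, JADE2 and NCOA2 differed more between the lines without the drug than with it. JADE1 averaged 7.38 in UKE1 with ITF2357 and 7.54 in HEL with ITF2357, while the untreated means were 9.07 in UKE1 and 8.04 in HEL. JADE2 averaged 6.22 in UKE1 with ITF2357 and 6.49 in HEL with ITF2357, and 8.39 and 7.24 in untreated UKE1 and untreated HEL. For NCOA2 the means were 8.10 in UKE1 with ITF2357 and 7.94 in HEL with ITF2357, and 9.38 and 8.15 in untreated UKE1 and untreated HEL. The treated means of the lines thus lay closer together than the untreated means for each of the 3 genes. For JADE2 both treated means lay below the all-gene median of 7.01, where background cannot be told apart from transcript. Whether low signal narrowed its gap was not tested. The untreated arrays enter both the response and the comparison of the untreated lines, so these values are given side by side without a test of their relation. KAT5, TADA2A, EPC2, EP300 and ELP3 had differences of response of 0.05 (95% interval -0.22 to 0.31), 0.00 (-0.20 to 0.20), 0.11 (-0.10 to 0.32), -0.04 (-0.25 to 0.16) and -0.05 (-0.25 to 0.15), none of them called.

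**Figure D4:**
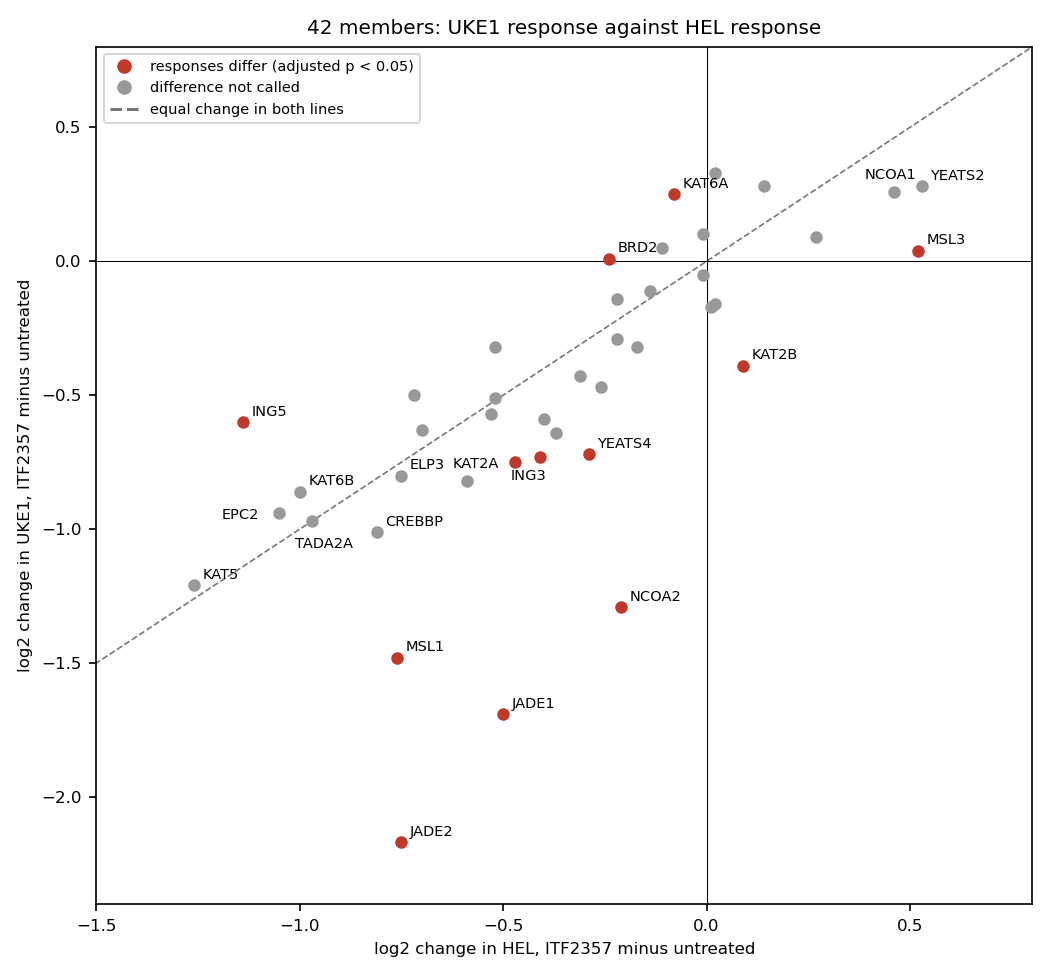
Log2 change with ITF2357 in UKE1 (y axis) against that in HEL (x axis) for the 42 genes, with the line of equal change dashed; red points are the 12 genes whose responses differed between the lines at an adjusted p under 0.05. JADE2, JADE1, NCOA2 and MSL1 lie far below the line of equal change, and ING5 lies above it.

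Without the drug, 21 of the 42 genes were higher in UKE1 than in HEL and 9 were lower, so that 71.4% were called, against 67.7% of all genes. Higher levels made up 50% of the 42 and 33.3% of all genes, and lower levels 21.4% of the 42 and 34.4% of all genes. The arrays of the untreated lines did not overlap for 30 of the 42, and for 69.4% of all genes. Of the 9208 genes above the all-gene median level, fitted alone, 3422 were higher and 3959 lower in UKE1. Of the 40 members among them, 19 were higher and 10 lower. CECR2 had log2 levels of 7.75, 7.69 and 7.73 in untreated UKE1, against 5.52, 5.53 and 5.20 in untreated HEL. This was the widest gap between the lines among the 42 genes, at 4.93-fold (2.30 ± 0.085, adjusted p = 1.25e-11). The HEL levels of CECR2 lay below the all-gene median of 7.01 and may be background. NCOA2, at 9.41, 9.40 and 9.34 in untreated UKE1, against 8.11, 8.23 and 8.12 in untreated HEL, was higher by 2.34-fold (adjusted p = 1.37e-09). JADE3 had 8.45, 8.47 and 8.42 in untreated UKE1, against 7.51, 7.47 and 7.48 in untreated HEL, and was higher by 1.94-fold (adjusted p = 1.46e-09). TADA1 had 9.76, 9.79 and 9.72 in untreated UKE1, against 8.84, 8.69 and 8.71 in untreated HEL, a level 2.01-fold higher (adjusted p = 4.93e-09). All 4 of these genes were higher in UKE1 on every array, and JADE1 was likewise higher, by 2.03-fold (adjusted p = 5.53e-09).

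TADA2B was the member furthest below HEL, with 7.08, 6.91 and 6.99 in untreated UKE1, against 8.12, 8.06 and 8.10 in untreated HEL. It was 2.14-fold lower (-1.10 ± 0.074, adjusted p = 8.62e-09), while its ATAC counterpart TADA2A differed by 0.05 and was not called (adjusted p = 0.485). BRD2 was lower in UKE1 by 1.70-fold (-0.77 ± 0.053, adjusted p = 1.32e-08), whereas its paralogue BRD3 was higher by 2.08-fold (1.05 ± 0.072, adjusted p = 1.11e-08). NCOA1 was lower in UKE1 by 1.47-fold (adjusted p = 7.94e-07) where NCOA2 was higher. ING3 and KAT5 were lower by 1.49-fold (adjusted p = 8.24e-06) and 1.5-fold (adjusted p = 3.46e-05). EP300 and CREBBP differed by 0.08 each and were not called (adjusted p = 0.299 and 0.335), but both were called higher in UKE1 under quantile normalization. These levels compare the lines gene by gene, and the T cell and erythroid markers given above also differ between them. Leaving out 1 untreated array ended the call for BRDT (4 arrays, adjusted p between 0.0611 and 0.104), YEATS2 (4 arrays, 0.0519 to 0.133), YEATS4 (4 arrays, 0.0602 to 0.137), HAT1 (2 arrays, 0.061 to 0.0855) and ING5 (2 arrays, 0.0745 to 0.0778).

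**Figure D5:**
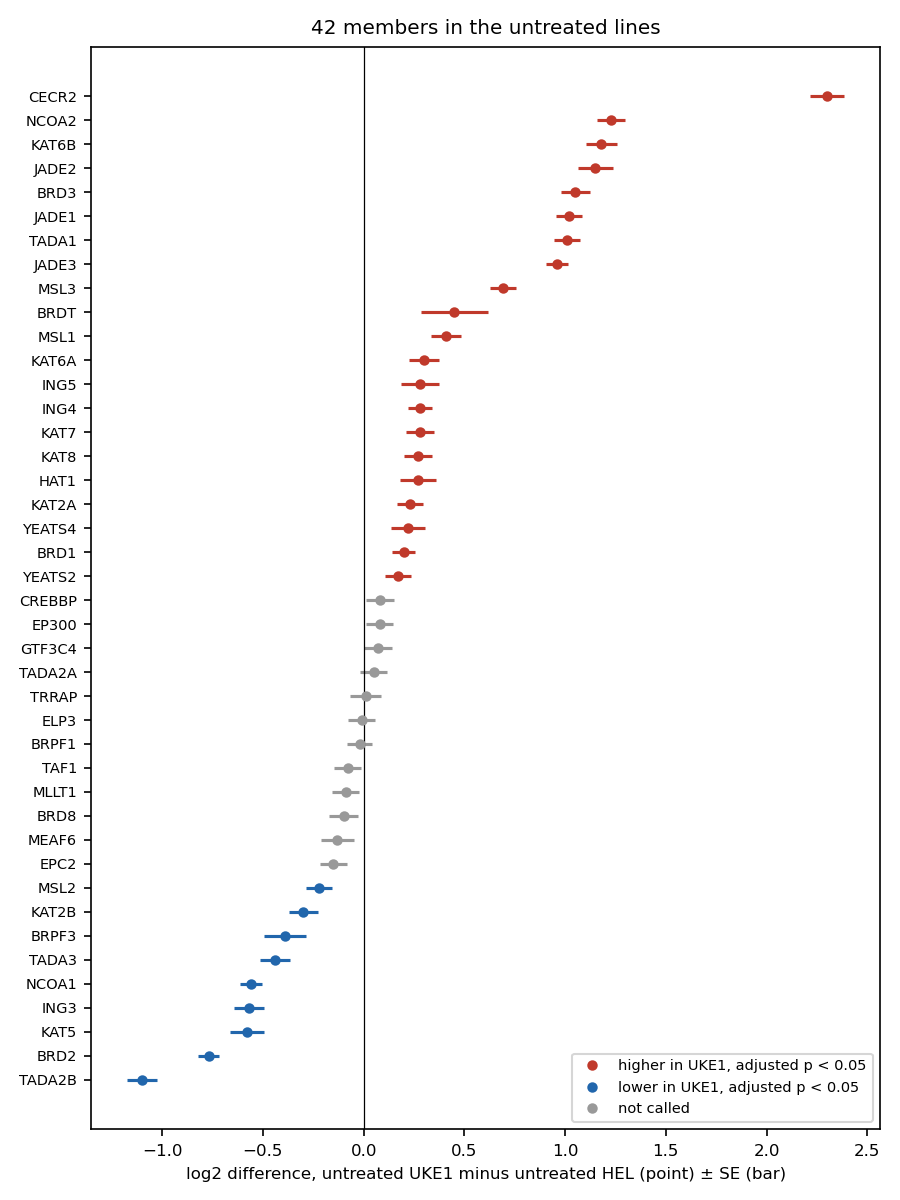
Log2 difference of untreated UKE1 minus untreated HEL (x axis, point ± SE) for the 42 genes, ordered by size from CECR2 at 2.30 to TADA2B at -1.10; red points were higher in UKE1, blue points lower and grey points not called. The 21 genes higher in UKE1 and the 9 lower ones lie on either side of 12 genes that were not called.

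A list of 74 further genes, made up of other subunits of the same complexes, other bromodomain and YEATS proteins, other acetyltransferases and acetyl-CoA supply, had 69 measured genes. Of these, 31 fell and 19 rose in HEL (44.9% and 27.5%), and 33 fell and 10 rose in UKE1 (47.8% and 14.5%). Over all genes, 19.9% fell and 22.6% rose in HEL, and 22.3% fell and 22.0% rose in UKE1. The median log2 change of the 69 genes was -0.14 in HEL and -0.16 in UKE1, against -0.01 and 0.01 over all genes. ACSS2, which makes acetyl-CoA from acetate, rose by 0.83 ± 0.070 in HEL (adjusted p = 3.95e-07) and 0.63 ± 0.070 in UKE1 (adjusted p = 4.66e-06). BAZ2A, a bromodomain protein of the nucleolar remodelling complex, rose by 0.70 ± 0.069 in HEL (adjusted p = 1.67e-06) and 0.60 ± 0.069 in UKE1 (adjusted p = 6.61e-06). ESCO2, the cohesin acetyltransferase, rose by 0.89 ± 0.086 in HEL (adjusted p = 1.32e-06) and 0.43 ± 0.086 in UKE1 (adjusted p = 0.000813). ATAT1, the tubulin acetyltransferase, rose by 0.66 ± 0.079 in UKE1 (adjusted p = 9.15e-06), and its change of -0.06 in HEL was not called (adjusted p = 0.601).

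Among the falls, ZZZ3, a reader subunit of ATAC, changed by -1.19 ± 0.066 in HEL (adjusted p = 1.05e-08) and -0.51 ± 0.066 in UKE1 (adjusted p = 2.01e-05). NAT10, an RNA cytidine acetyltransferase, changed by -0.85 ± 0.059 in HEL (adjusted p = 7.42e-08) and -0.64 ± 0.059 in UKE1 (adjusted p = 8.51e-07). ZMYND8 and ZMYND11, readers with a bromodomain and a PWWP domain, changed by -0.92 ± 0.068 and -0.92 ± 0.070 in HEL (adjusted p = 1.28e-07 and 1.62e-07). In UKE1 the same readers changed by -1.61 ± 0.068 and -1.57 ± 0.070 (adjusted p = 1.1e-09 and 1.47e-09). HCFC1, a scaffold of the NSL complex of KAT8, changed by -1.04 ± 0.082 in HEL (adjusted p = 2.21e-07) and -1.52 ± 0.082 in UKE1 (adjusted p = 7.2e-09). By role, the other SAGA and ATAC subunits had 10 falls and 4 rises of 16 in HEL and 8 falls and 2 rises in UKE1. The other TIP60/NuA4 subunits had 5 falls and 2 rises of 10 in HEL and 4 falls and no rise in UKE1. The remaining groups were MSL and NSL subunits (5 falls and 1 rise of 6 in HEL, 3 falls in UKE1), bromodomain and YEATS proteins (8 falls and 6 rises of 22 in HEL, 11 falls and 4 rises in UKE1) and other acetyltransferases with acetyl-CoA supply (3 falls and 6 rises of 15 in HEL, 7 falls and 4 rises in UKE1). In HEL, falls made up 20.0% of the last group, near the 19.9% of all genes.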

How the data were processed

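Total RNA of HEL and UKE1 cells was hybridised to Affymetrix Gene 1.0 ST arrays, 3 for each of 4 groups. The authors made the values with RMA in Affymetrix Expression Console, per the submitters' processing notes, which name no version. RMA corrects the background, quantile-normalizes the arrays and summarises the probes of each transcript, so a shift common to all genes of an array is largely removed. Small shifts remained, with array medians from 6.41 to 6.5. A further quantile normalization moved the difference of the untreated lines from -0.22 to -0.04 for MSL2. The deposited values were taken as log2 from their range of 1.26 to 14.36, because no label states the base. Without detection flags no gene was called absent, and precision is limited by the 3 arrays a group.

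Of 33297 rows, 19460 had 1 symbol in GEO's platform annotation, 1754 had several and 12083 had none listed. Symbols were checked by gene ID against RefSeq (GRCh38.p14) for 19429 rows. Genes with several rows (769) kept the row with the highest mean, which left 18417 genes. These were fitted together with limma 3.58.1 in R 4.3.3 (lmFit and eBayes, 1 mean per group, 12 arrays, 8 residual degrees of freedom, two-sided), with Benjamini-Hochberg adjustment over all genes and a threshold of 0.05. The fit was tested on simulated data. The alternatives were quantile normalization, median centring, a trend in the prior variance, a filter on low levels, the mean of all rows of a gene, the compared groups alone, a replicate block and leaving out each array.

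The members, the further genes and the tests were chosen with earlier results of these data known. Values on every array are given for genes called with at least a 1.6-fold change in 1 of the lines, for EP300, CREBBP, KAT2A, KAT2B and BRD2, and for up to 5 genes with the smallest adjusted p in each direction of the 2 line comparisons. Those of YEATS2 and NCOA1 in the response to the drug were added after their values were seen. Of the further genes, the 3 with the smallest adjusted p in each direction and line are named. Promoter windows were trimmed to the 250 bases before the start and searched on both strands.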

Additional observations from a re-analysis of the deposited data

Results flagged for a closer look

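The response to ITF2357 differed between UKE1 and HEL, by the limma test of the difference with an adjusted p under 0.05, for 12 of the 42 genes and for 6 of the further genes named. Values are the UKE1 change minus the HEL change on the log2 scale. They were -1.42 for JADE2, -1.19 for JADE1, -1.08 for NCOA2, -0.72 for MSL1, -0.48 for MSL3, -0.48 for KAT2B, -0.42 for YEATS4, -0.32 for ING3 and -0.27 for KAT2A. They were 0.55 for ING5, 0.33 for KAT6A and 0.25 for BRD2. For BRD2 and MSL3 the change was called in HEL alone, and for KAT2B and KAT6A in UKE1 alone.

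Among the further genes, the UKE1 response was lower for ZMYND8 (-0.69), ZMYND11 (-0.66), HCFC1 (-0.47) and ESCO2 (-0.46), and higher for ATAT1 (0.72) and ZZZ3 (0.69). ZMYND8, ZMYND11 and HCFC1 fell in both lines and by more in UKE1, whereas ZZZ3 fell in both lines and by less in UKE1. ATAT1 averaged 7.65 ± 0.077 in UKE1 with ITF2357 and 6.99 ± 0.15 in untreated UKE1 (SD, n = 3 each), against 5.34 ± 0.075 in HEL with ITF2357 and 5.40 ± 0.060 in untreated HEL, where its change was not called. Groups of 3 arrays are too small for a check of single arrays that stand apart.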

How the results depend on the processing

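Under the alternatives other than leaving out an array, the counts of falls stayed between 25 and 29 in HEL and between 27 and 28 in UKE1, and the count of falls in both lines, which was added after seeing the data, between 24 and 26. The count of higher UKE1 responses, 3, became 1 under median centring, where the all-gene split of the difference was 1370 higher and 3102 lower, in place of 1854 and 2541. ELP3 in the untreated lines, at -0.01 and not called, stood at 0.17 under quantile normalization (adjusted p = 0.0251), and the cause was not tested. Leaving out 1 array in turn gave 3 to 5 rises and 24 to 28 falls in HEL, 4 to 5 rises and 27 to 28 falls in UKE1, 1 to 3 higher and 6 to 9 lower differences of response, 17 to 21 higher and 9 to 10 lower levels in untreated UKE1, and 2 to 3 rises and 23 to 25 falls shared by both lines. Under the settings other than leaving out an array, calls were lost for BRD8, HAT1, MEAF6 and TADA3 in HEL, BRD2, KAT2A and KAT6A in the difference, and MSL2 and YEATS2 in the untreated lines. They were gained for BRPF1, ING4 and MLLT1 in HEL, BRD3 in UKE1, KAT7, NCOA1 and YEATS2 in the difference, and EPC2, EP300 and CREBBP in the untreated lines, the last pair at 0.18 each under quantile normalization (adjusted p = 0.0341 for EP300 and 0.0366 for CREBBP). Leaving out 1 array added a call of the difference for KAT7, KAT8, YEATS2, MEAF6 and CECR2, and of the untreated lines for EPC2 and MEAF6.

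Replicate numbers paired the samples weakly at most. Deviations of same-numbered arrays correlated between -0.0877 and 0.0645 in HEL, between 0.0302 and 0.0348 in UKE1 and between -0.0143 and 0.1224 in the untreated lines. Arrays of other numbers gave -0.1385 to 0.0949 in HEL, -0.031 to -0.0028 in UKE1 and -0.1113 to 0.0867 in the untreated lines. Only in UKE1 did every same-numbered pair exceed the others, by a small margin. With the number as a replicate block, 25 genes fell and 4 rose in HEL, 27 fell and 5 rose in UKE1, 8 differences of response were lower and 2 higher, 20 levels were higher and 8 lower in untreated UKE1, and 24 falls and 2 rises were shared by both lines. Signal limits BRDT, whose mean level stood at percentile 4.87 of all genes. In HEL it may also limit CECR2 (means of 5.43 with ITF2357 and 5.42 untreated) and ATAT1 (5.34 and 5.40). These lie below the all-gene median of 7.01, and without detection flags background cannot be told apart from transcript. The line gap of CECR2 and the difference of response of ATAT1 rest on these HEL values. Some called members also had group means below 7.01. With ITF2357 these were JADE2 (6.49 in HEL and 6.22 in UKE1), BRPF3 (6.91 and 6.59), KAT6B in HEL (6.54) and ING5 in HEL (6.60). Without it, TADA2B in UKE1 averaged 6.99. Background may limit these values too, so the size of the changes that rest on them is less certain.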

Other observations

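MLLT3 and BRD9 are described here as further bromodomain and YEATS proteins, and both were chosen after their values were seen. MLLT3 (AF9), the paralogue of MLLT1 in the super elongation complex, averaged 10.28 ± 0.080 in HEL with ITF2357 and 9.80 ± 0.078 in untreated HEL, and 10.00 ± 0.071 in UKE1 with ITF2357 and 10.61 ± 0.076 in untreated UKE1 (SD, n = 3 each). It was called in opposite directions, with a log2 change of 0.48 ± 0.069 in HEL (adjusted p = 5.95e-05) and -0.60 ± 0.069 in UKE1 (adjusted p = 6.37e-06), and a difference of -1.08 ± 0.098 (adjusted p = 4.71e-06). BRD9, the bromodomain subunit of the noncanonical BAF remodeller, averaged 7.65 ± 0.17 in HEL with ITF2357 and 8.66 ± 0.0036 in untreated HEL, and 7.41 ± 0.10 in UKE1 with ITF2357 and 8.48 ± 0.12 in untreated UKE1. It fell in both lines, by 1.01 ± 0.088 on the log2 scale in HEL (adjusted p = 5.54e-07) and by 1.06 ± 0.088 in UKE1 (adjusted p = 3.08e-07).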
